A study of Mus musculus with 12 samples.

Results

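The genes described here are the clock output factors of the heart: the PAR bZIP activators Dbp, Tef and Hlf, the bZIP repressor Nfil3, the bHLH repressors Bhlhe40 and Bhlhe41, and the repressor Ciart. They were taken by name from the deposited table, where each of the 7 names has 1 row among 13552 genes, and all 7 passed the filter on low values that left 11240 genes for testing. The rule itself uses gene names and no measured value.

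Circadian clocks run in cardiac cells as a loop in which BMAL1 (Arntl) and CLOCK switch on genes through E-boxes, short DNA elements that also draw clock repressors. Part of the rhythm leaves the loop through the output factors. DBP, TEF and HLF, whose name PAR refers to a proline and acidic amino acid-rich stretch beside the bZIP DNA-binding domain, activate genes through D-boxes, and NFIL3 (also E4BP4) binds the same elements and represses. BHLHE40 and BHLHE41 (DEC1 and DEC2) occupy E-boxes and repress, and CIART (CHRONO) binds BMAL1 and represses it. In the heart such rhythms are known to reach ion channels and fuel use.

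Hearts were taken 9 h after transverse aortic constriction (TAC), an operation that narrows the aorta and overloads the left ventricle with pressure, or after sham surgery. The 4 groups of 3 young adult male C57BL/6 mice each were wild type (WT) mice with sham surgery or TAC, and mice with a Bcl-xL S14A knock-in (KI), again with sham surgery or TAC. KI mice carried the change of serine 14 to alanine in both copies of Bcl2l1 in every tissue. A marker cassette had been removed with CMV-Cre. Several embryonic stem cell clones were injected to make the line, and from which of them these mice descend is not stated. Both genotypes had a C57BL/6J background, and WT mice were bought and are not described as littermates. All mice had pentobarbital anaesthesia and were kept in 12-h light and dark phases, but the hour of day of collection is not given in the sources used here, and its part in the values below was not tested.

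Levels are in RPKM, reads on a gene scaled to its exon length and to all reads on genes, so that levels of different genes can be set side by side. The libraries held between 23650312 and 32454994 reads on genes. A member had between 93 reads (Ciart in WT TAC 9) and 17436 reads (Tef in KI sham 3). WT TAC libraries (25715296 to 29608629 reads) and KI TAC libraries (30298318 to 31676914) did not overlap in depth. All 7 cardiomyocyte markers were present in every heart, with sums of 14822 to 19756 RPKM in WT sham, 12783 to 22936 in WT TAC, 16069 to 19134 in KI sham and 15482 to 21504 in KI TAC. In limma 1 of the 7 was called lower after TAC in WT hearts and 1 in KI hearts, and 2 were called higher in KI TAC than in WT TAC. Bcl2l1 was at 12.2 ± 4.52 RPKM in WT sham, 10.4 ± 5.88 in WT TAC, 13.9 ± 6.47 in KI sham and 32.4 ± 6.89 in KI TAC (mean ± SD, n = 3), and since the knock-in changes 1 codon its level does not check the genotype. KI sham 1 stood apart from KI sham 2 and 3 in the members, WT TAC 9 from the other WT TAC hearts, WT sham 1 from the other WT sham hearts and KI TAC 5 from the other KI TAC hearts, as given with each gene.

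Positions are those of GRCm38. Dbp (ENSMUSG00000059824) lies on the plus strand at chr7:45705088-45710203, Tef (ENSMUSG00000022389) on the plus strand at chr15:81802421-81826863, and Hlf (ENSMUSG00000003949) on the minus strand at chr11:90336536-90390895. Nfil3 (ENSMUSG00000056749) lies on the minus strand at chr13:52967209-52981073, Bhlhe40 (ENSMUSG00000030103) on the plus strand at chr6:108660629-108666925, Bhlhe41 (ENSMUSG00000030256) on the minus strand at chr6:145858243-145865558, and Ciart (ENSMUSG00000038550) on the minus strand at chr3:95878503-95882251. Exons of 4 members share bases with a gene on the other strand: Dbp 539 with Sphk2, Tef 193 with Gm17597, Bhlhe40 118 with 0610040F04Rik and Bhlhe41 1280 with Gm43909. The libraries kept strand, but the strand setting of the counting is not stated, so reads in these shared bases may be assigned to either gene or to none. Sphk2, a sphingosine kinase, was at 9.19 ± 0.69 RPKM in WT sham, 9.47 ± 1.06 in WT TAC, 8.76 ± 0.33 in KI sham and 8.28 ± 2.65 in KI TAC, and its log2 fold changes after TAC were 0.04 in WT and -0.11 in KI hearts (limma, adjusted p = 0.926 and 0.710). The part of reads in the shared bases in the values of Dbp was not tested.

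Promoter windows were read from RefSeq for GRCm38.p6, from 250 bases before to 50 bases after a transcription start. They were found for 6 of the 7 members, with 2 starts for Tef; Bhlhe40 had none. Both strands were searched for the E-box CACGTG, its variant CACGTT, the D-box TTANGTAA and the cAMP response element TGACGTCA, and no match overlapped another. Ciart had 3 E-boxes, at -116, -58 and -44 from the start. Of all 32851 windows, 7.15% held at least 1 E-box and 0.0883% at least 3. Both Tef windows held an E-box, at -127 of the first start, where the annotation places an exon, and at -138 of the second. The Bhlhe41 window held an E-box at -153, and the Hlf window held the cAMP response element, which 1.79% of windows held, at -9. None of these letters were found in the windows of Dbp and Nfil3, and no member's window held the variant E-box (4.68% of all windows) or the D-box (2.32%). Sequence beyond the windows was not searched, so an empty window does not mean that a gene lacks such an element. The stretches outside exons that hold a match are shown, 5′ to 3′ on the gene's strand with the matches in capitals, because these members are compared below and the spacing of the Ciart E-boxes cannot be seen from a count. They are chr3:95882252-95882478 for Ciart, chr15:81811164-81811413 for Tef, chr6:145865559-145865670 for Bhlhe41 and chr11:90390918-90391167 for Hlf.
Ciart: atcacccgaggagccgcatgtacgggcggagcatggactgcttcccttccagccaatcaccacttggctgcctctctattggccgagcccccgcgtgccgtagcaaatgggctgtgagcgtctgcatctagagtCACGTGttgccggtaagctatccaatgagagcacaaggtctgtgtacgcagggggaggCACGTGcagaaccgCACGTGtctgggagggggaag
Tef: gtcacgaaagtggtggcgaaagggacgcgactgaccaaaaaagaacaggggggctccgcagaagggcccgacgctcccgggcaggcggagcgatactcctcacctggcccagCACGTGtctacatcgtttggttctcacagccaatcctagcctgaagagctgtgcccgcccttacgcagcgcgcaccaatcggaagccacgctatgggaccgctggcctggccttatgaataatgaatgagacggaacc
Bhlhe41: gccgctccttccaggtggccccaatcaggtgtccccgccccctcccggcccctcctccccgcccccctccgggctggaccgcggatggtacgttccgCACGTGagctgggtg
Hlf: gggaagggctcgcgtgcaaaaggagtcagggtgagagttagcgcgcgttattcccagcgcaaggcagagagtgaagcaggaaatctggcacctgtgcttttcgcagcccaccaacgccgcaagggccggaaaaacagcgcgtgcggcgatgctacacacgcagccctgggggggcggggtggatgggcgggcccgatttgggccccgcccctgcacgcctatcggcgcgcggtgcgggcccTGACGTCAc

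**Figure D1:**
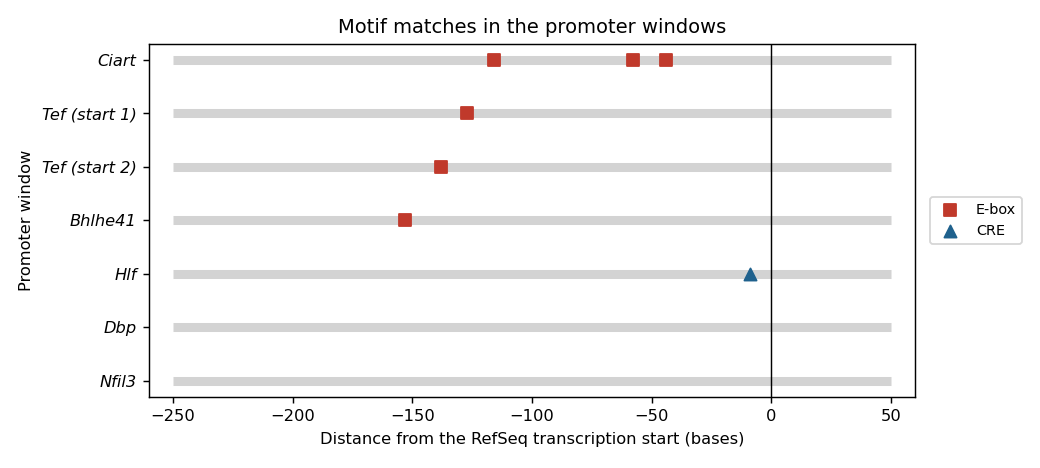
Positions of motif matches in the RefSeq promoter windows of 6 clock output factors; grey bars run from 250 bases before to 50 bases after the transcription start (horizontal axis, bases), squares are E-boxes and the triangle is the cAMP response element (CRE). The 3 E-boxes of Ciart lie between -116 and -44, and the bars of Dbp and Nfil3 are empty.

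Within WT hearts TAC was followed by lower Hlf and Ciart, and within KI hearts by lower Hlf and Dbp and higher Nfil3. Calls are at a Benjamini-Hochberg adjusted p under 0.05 over 11240 genes, from limma on log2(RPKM + 1) in all 12 mice. In WT TAC against WT sham, 0 members rose and 2 fell, against a background of 6.96% of all genes called higher and 4.60% called lower (11.6% in either direction). An unadjusted p under 0.05 was reached by 5 members and 27.9% of all genes. The values of 4 members did not overlap between the groups, which 35.1% of all genes share. In KI TAC against KI sham, 1 member rose and 2 fell, against 8.57% higher and 14.7% lower (23.3% in either direction), 3 members had an unadjusted p under 0.05, against 36.8%, and 3 members did not overlap, against 38.3% of all genes. In KI TAC against WT TAC, 1 member (Nfil3) was higher and 0 were lower, against 2.92% and 8.13% (11.0%), 1 had an unadjusted p under 0.05, against 30.3%, and 1 member (Ciart) did not overlap, against 29.5%. With 3 mice against 3, the exact permutation test cannot give a two-sided p below 0.1, which was reached by every pair of groups without overlap. limma-voom on recovered reads called 2, 3 and 1 members in the same order. These comparisons share groups with one another, so their counts are not independent.

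The median log2 fold change of the 7 members was -1.10 in WT and -0.49 in KI hearts after TAC, and that of all genes was 0.04 and -0.10. It was -0.03 for the members and -0.12 for all genes in KI TAC against WT TAC. Median-ratio scaling of the libraries moved the medians of all genes to 0.03 in both KI TAC comparisons, and with them the direction of the background: the share of calls that were higher went from 36.8% to 55.0% in KI TAC against KI sham and from 26.4% to 58.6% in KI TAC against WT TAC, and from 60.2% to 50.2% in WT TAC against WT sham. With quantile normalization the 3 shares were 48.3%, 46.0% and 48.1%.

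**Figure D2:**
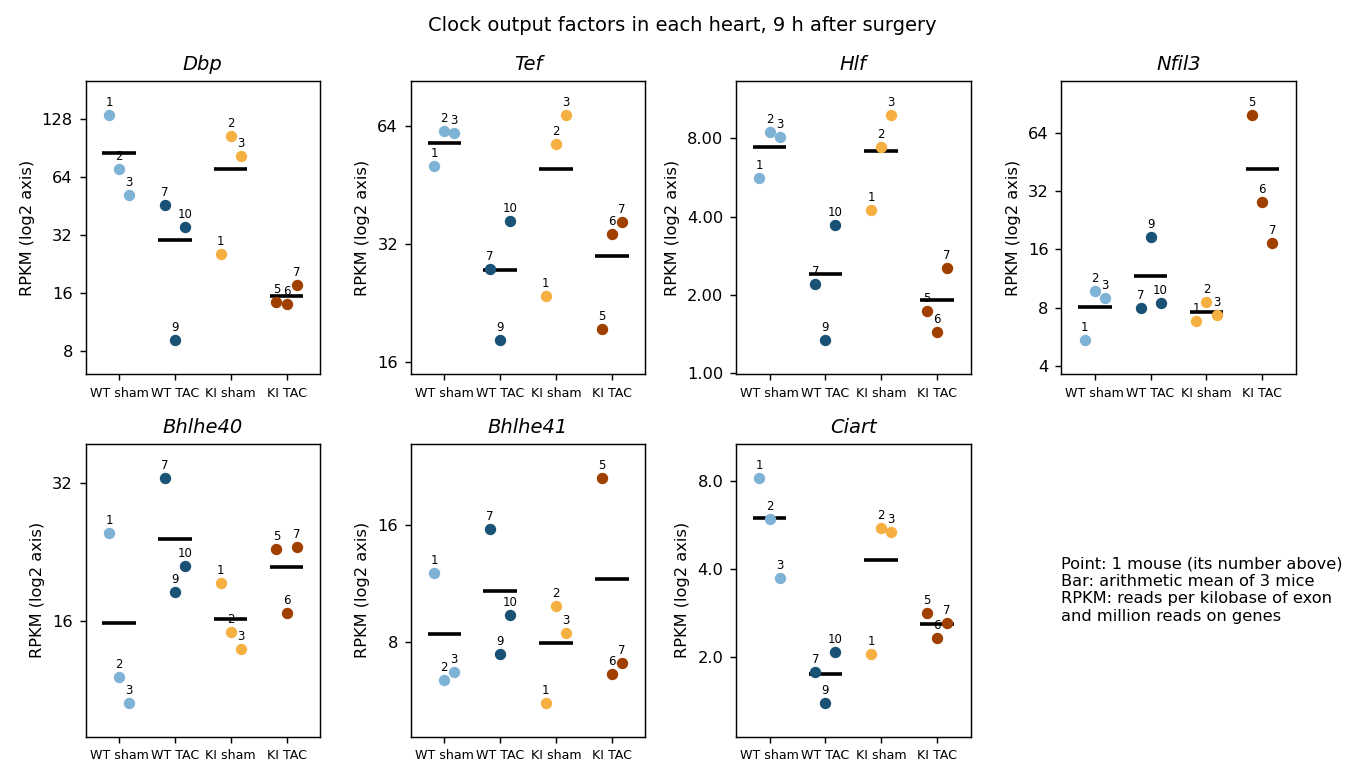
Level of each clock output factor in each heart (RPKM on a log2 axis) by group; points are mice with their numbers and bars are arithmetic means of 3 mice. Hlf and Ciart in WT TAC lie below all WT sham hearts, Dbp lies between 13.9 and 17.6 in KI TAC, and Nfil3 reaches 79.2 in KI TAC 5.

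Dbp, the D-box activator with the widest known daily swing of the family, was at 135, 70.6 and 51.3 RPKM in WT sham 1, 2 and 3 and at 45.7, 9.06 and 35.1 in WT TAC 7, 9 and 10. It was at 25.4, 105 and 81.9 RPKM in KI sham 1, 2 and 3 and at 14.4, 13.9 and 17.6 in KI TAC 5, 6 and 7. In both genotypes every TAC heart was below every sham heart, and the KI TAC hearts lay within 1.26-fold of each other while the WT TAC hearts spanned 5.04-fold. The log2 fold change was -1.92 (SE 0.56) in KI hearts, which passed the test (limma, adjusted p = 0.0253), and -1.63 (SE 0.56) in WT hearts, which did not (adjusted p = 0.0753). Of the 11240 genes tested, 26 in KI and 25 in WT hearts, Dbp included, had a log2 fold change as low or lower. The call in KI hearts was lost in 4 of the 12 fits that left out 1 mouse: without KI sham 2 (-1.53, adjusted p = 0.0993), KI sham 3 (-1.70, 0.0967), KI TAC 5 (-1.88, 0.0682) or KI TAC 6 (-1.86, 0.0700). The call in WT hearts was gained without KI sham 1, which enters only the shared estimate of the spread (-1.63, adjusted p = 0.0409), while the WT fold change itself was -0.96 without WT TAC 9 (adjusted p = 0.256) and -1.25 without WT sham 1 (0.241). The genotype difference after TAC was -0.66 (SE 0.56, adjusted p = 0.449), and the 2 groups overlapped, as WT TAC 9 was below all KI TAC hearts. It was -1.34 without WT TAC 9 (limma, adjusted p = 0.0835), -0.42 without WT TAC 10 (0.713) and -0.23 without WT TAC 7 (0.851).

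Tef, the activator whose level is known to swing less over the day, was at 50.6, 62.1 and 61.3 RPKM in WT sham 1, 2 and 3 and at 27.6, 18.2 and 36.6 in WT TAC 7, 9 and 10. It was at 23.5, 57.6 and 68.3 RPKM in KI sham 1, 2 and 3 and at 19.4, 33.9 and 36.4 in KI TAC 5, 6 and 7. WT TAC and WT sham hearts did not overlap; in KI hearts, KI sham 1 was below 2 of the 3 TAC hearts. The log2 fold change was -1.10 (SE 0.36) in WT and -0.64 (SE 0.36) in KI hearts, neither past the threshold (limma, adjusted p = 0.0645 and 0.219). Without KI sham 1 both passed it, at -1.10 (adjusted p = 0.0204) and -1.09 (0.0261), whereas the KI difference was -0.35 without KI sham 3 (0.589) and -0.36 without KI TAC 5 (0.552). The WT difference also passed without WT TAC 10 (-1.33, 0.0395), with median-ratio scaling (-1.14, 0.0468) and in a fit of the 2 WT groups alone (-1.10, 0.0270).

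Hlf, the activator with the lowest level of the family in these hearts, was at 5.61, 8.43 and 8.06 RPKM in WT sham 1, 2 and 3 and at 2.21, 1.34 and 3.70 in WT TAC 7, 9 and 10. It was at 4.25, 7.42 and 9.82 RPKM in KI sham 1, 2 and 3 and at 1.74, 1.44 and 2.54 in KI TAC 5, 6 and 7. TAC and sham hearts did not overlap in either genotype, KI sham 1 included. Hlf fell by 1.33 on the log2 scale (SE 0.29) in WT hearts and by 1.44 (SE 0.29) in KI hearts (limma, adjusted p = 0.00958 and 0.00310). Both calls held in all 12 fits that left out 1 mouse, with adjusted p up to 0.0427 in WT and 0.0202 in KI hearts. Among the 7 members, Hlf was the only one called in both genotypes.

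Dbp, Tef and Hlf differ in level, so a sum over them follows mostly Dbp and Tef. Their summed level was 191, 141 and 121 RPKM in WT sham 1, 2 and 3, and the lowest, median and highest were 28.6, 75.5 and 75.5 in WT TAC, 53.2, 160 and 170 in KI sham and 35.5, 49.3 and 56.5 in KI TAC. Dbp made up 42.5% to 70.6% of the sum in WT sham, 31.7% to 60.5% in WT TAC, 47.8% to 61.7% in KI sham and 28.3% to 40.5% in KI TAC. Tef made up 54.5% to 68.8% in KI TAC, 33.9% to 44.2% in KI sham, 36.6% to 63.6% in WT TAC and 26.5% to 50.8% in WT sham. In KI TAC hearts, Tef was thus the most abundant of the 3 in every mouse, while in KI sham hearts Dbp was.

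Nfil3, the repressor that competes with these activators for D-boxes and is also known from immune cells, was at 5.44, 9.81 and 9.03 RPKM in WT sham 1, 2 and 3 and at 8.02, 18.5 and 8.43 in WT TAC 7, 9 and 10. It was at 6.81, 8.62 and 7.32 RPKM in KI sham 1, 2 and 3 and at 79.2, 28.2 and 17.2 in KI TAC 5, 6 and 7. All KI TAC hearts were above all KI sham hearts and were themselves spread over 4.60-fold, the widest spread of Nfil3 in any group; in WT hearts the groups overlapped. Nfil3 rose by 2.03 on the log2 scale (SE 0.43) after TAC in KI hearts (limma, adjusted p = 0.00477), and 101 of 11240 genes, Nfil3 included, had a log2 fold change as high or higher. The call held in all 12 fits that left out 1 mouse, and without KI TAC 5 the log2 fold change was the lowest of these, 1.43. In WT hearts the log2 fold change was 0.42 (SE 0.43, adjusted p = 0.565), and it was 0.06 (0.954) without WT TAC 9 and 0.18 (0.866) without WT sham 1.

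Between the TAC groups Nfil3 was higher in KI hearts by 1.56 on the log2 scale (SE 0.43, limma, adjusted p = 0.0368), although KI TAC 7 (17.2) was below WT TAC 9 (18.5) and the exact permutation test gave p = 0.2. This call was lost in 5 of the 12 fits that left out 1 mouse: without WT TAC 7 (1.37, adjusted p = 0.148), WT TAC 10 (1.40, 0.0982), KI sham 3 (1.56, 0.0527), KI TAC 5 (0.96, 0.0948) or KI TAC 6 (1.69, 0.0943). It was also lost in a fit of the 2 TAC groups alone (adjusted p = 0.114). The interaction, that is the TAC response of KI hearts minus that of WT hearts, was 1.62 (SE 0.61, limma, adjusted p = 0.256), with an unadjusted p of 0.0199, so a difference in response between the genotypes did not pass the test.

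**Figure D3:**
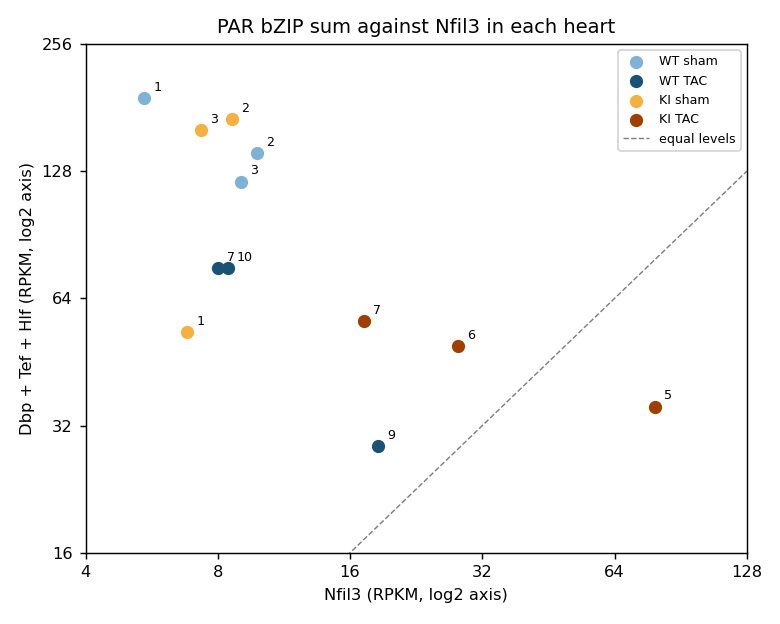
Summed level of Dbp, Tef and Hlf (vertical axis, RPKM) against Nfil3 (horizontal axis, RPKM) in each of 12 hearts, both axes log2; colours are groups, numbers are mice and the dashed line marks equal levels. KI TAC 5 lies beyond the line, with 35.5 RPKM of the activators against 79.2 of Nfil3.

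Activators and repressor of the D-box can be set against each other within a mouse, where scaling between libraries cancels. The summed RPKM of Dbp, Tef and Hlf over that of Nfil3 was 35.1, 14.4 and 13.4 in WT sham 1, 2 and 3 and 9.41, 1.55 and 8.96 in WT TAC 7, 9 and 10. It was 7.82, 19.7 and 21.9 in KI sham 1, 2 and 3 and 0.449, 1.75 and 3.28 in KI TAC 5, 6 and 7. KI TAC 5 was thus the only heart with more Nfil3 than the 3 activators together. TAC hearts were below sham hearts in both genotypes without overlap, and WT TAC 9 lay among the KI TAC hearts. The ratio combines values already given and was not tested.

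Bhlhe40, an E-box repressor that also answers to hypoxia and hormones, was at 24.9, 12.1 and 10.6 RPKM in WT sham 1, 2 and 3 and at 32.9, 18.5 and 21.1 in WT TAC 7, 9 and 10. It was at 19.4, 15.2 and 13.9 RPKM in KI sham 1, 2 and 3 and at 23.0, 16.7 and 23.3 in KI TAC 5, 6 and 7. The groups overlapped in each comparison, in WT hearts through WT sham 1 alone, and no difference was called. The log2 fold changes after TAC were 0.63 (SE 0.29) in WT and 0.36 (SE 0.29) in KI hearts (limma, adjusted p = 0.176 and 0.404). Without WT sham 1 the WT value was 0.99 and passed the threshold (adjusted p = 0.0329).

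Bhlhe41, its close relative, was at 12.02, 6.38 and 6.70 RPKM in WT sham 1, 2 and 3 and at 15.7, 7.44 and 9.40 in WT TAC 7, 9 and 10. It was at 5.56, 9.91 and 8.41 RPKM in KI sham 1, 2 and 3 and at 21.2, 6.60 and 7.07 in KI TAC 5, 6 and 7. The high means of the TAC groups rested on WT TAC 7 and KI TAC 5, and all comparisons overlapped. The log2 fold changes were 0.33 (SE 0.39) in WT and 0.34 (SE 0.39) in KI hearts (limma, adjusted p = 0.615 and 0.555), and without KI TAC 5 the KI value turned to -0.16. Bhlhe40 was above Bhlhe41 in every heart, by 1.09-fold (KI TAC 5) to 3.48-fold (KI sham 1).

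Ciart, the repressor with 3 E-boxes before its start, was at 8.20, 5.93 and 3.71 RPKM in WT sham 1, 2 and 3 and at 1.77, 1.39 and 2.07 in WT TAC 7, 9 and 10. It was at 2.04, 5.50 and 5.34 RPKM in KI sham 1, 2 and 3 and at 2.83, 2.32 and 2.60 in KI TAC 5, 6 and 7. All WT TAC hearts were below all WT sham hearts and below all KI TAC hearts, and KI sham 1 was below the KI TAC hearts. Ciart fell by 1.30 on the log2 scale (SE 0.28) after TAC in WT hearts (limma, adjusted p = 0.0100), a call that held in all 12 fits that left out 1 mouse. In KI hearts the log2 fold change was -0.49 (SE 0.28, adjusted p = 0.226), and it was -0.84 (adjusted p = 0.0261) without KI sham 1, -0.30 (0.518) without KI sham 2 and -0.31 (0.537) without KI sham 3. The genotype difference after TAC was 0.39 (SE 0.28, adjusted p = 0.364) and the interaction 0.81 (SE 0.40, limma, adjusted p = 0.355), with an unadjusted p of 0.0604, so Ciart was called in WT hearts alone but a difference between the genotypes in its response was not.

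**Figure D4:**
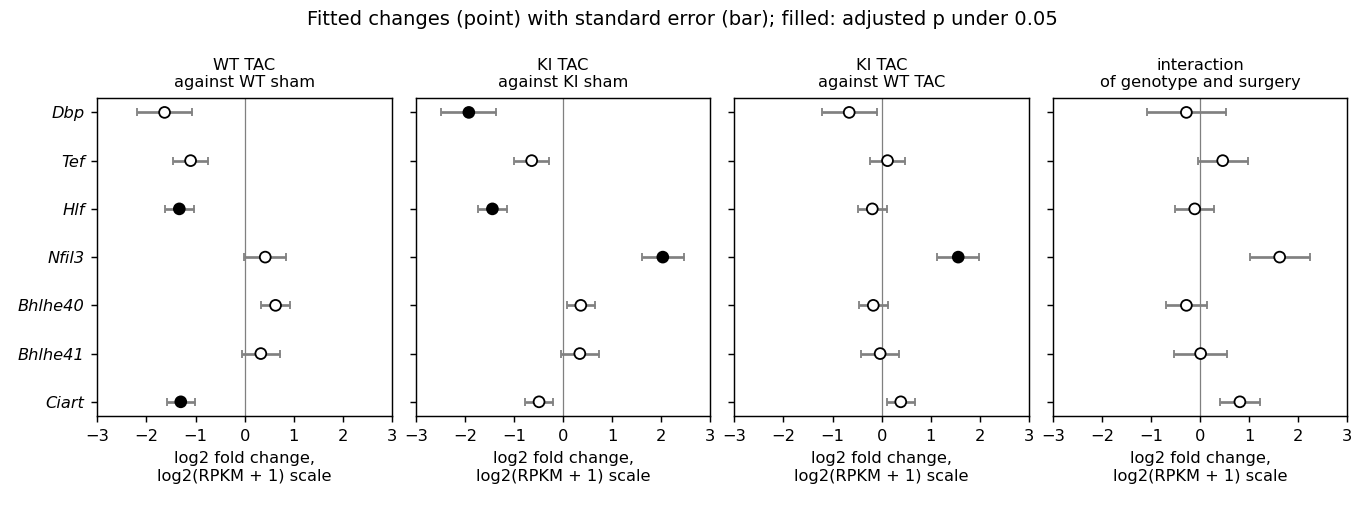
Log2 fold changes of the 7 clock output factors on the log2(RPKM + 1) scale (points) with their standard errors (bars) in 3 comparisons and the interaction; filled points passed an adjusted p of 0.05 in limma over 11240 genes. Hlf is filled in both TAC comparisons, and no point of the interaction is filled.

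Without pressure overload no difference between the genotypes passed the test in these genes. In KI sham against WT sham 0 of 7 members were called in limma, 0 in limma-voom and 0 had an unadjusted p under 0.05, against 0.0178% of all genes called and 0.329% with an unadjusted p under 0.05. The log2 fold changes lay between -0.42 (Ciart, SE 0.28) and 0.11 (Bhlhe40, SE 0.29), 6 of the 7 were below 0, and the groups overlapped for all 7 (3.27% of all genes did not overlap). The values of KI sham 1 entered these differences: without that mouse Dbp was at 0.23 and Tef at 0.12. Across all 7 members 0 interactions were called in limma and in limma-voom, and 1 (Nfil3) had an unadjusted p under 0.05, against 0% and 14.8% of all genes.

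Hearts of 1 group differed in several of these genes together. KI sham 1 had the lowest Dbp, Tef, Hlf and Ciart of the KI sham hearts (25.4, 23.5, 4.25 and 2.04 RPKM) and 2.04 RPKM of Arntl, the gene of BMAL1, against 0.132 and 0.160 in KI sham 2 and 3. WT TAC 9 had the lowest Dbp, Tef, Hlf and Ciart of all 12 hearts and the highest Arntl, 2.56 RPKM, against 1.19 and 0.641 in WT TAC 7 and 10. WT sham 1 had the highest Dbp and Ciart of all 12 hearts together with the highest Nr1d1 (83.9 RPKM), the gene of the repressor REV-ERBα, while its Per2 was 6.47 RPKM against 26.3 and 24.8 in WT sham 2 and 3. In the other direction, its Tef (50.6 RPKM) and Hlf (5.61) were the lowest of the WT sham hearts. Arntl was at 0.765, 0.141 and 0.337 RPKM in WT sham 1, 2 and 3 and at 1.81, 0.969 and 0.704 in KI TAC 5, 6 and 7. It lay under 1 RPKM, the level of the filter, in all WT sham hearts, KI sham 2 and 3, WT TAC 10 and KI TAC 6 and 7. Its differences thus rest on low values. The part of circadian phase, or of the hour of collection, in these differences between mice of 1 group was not tested.

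**Figure D5:**
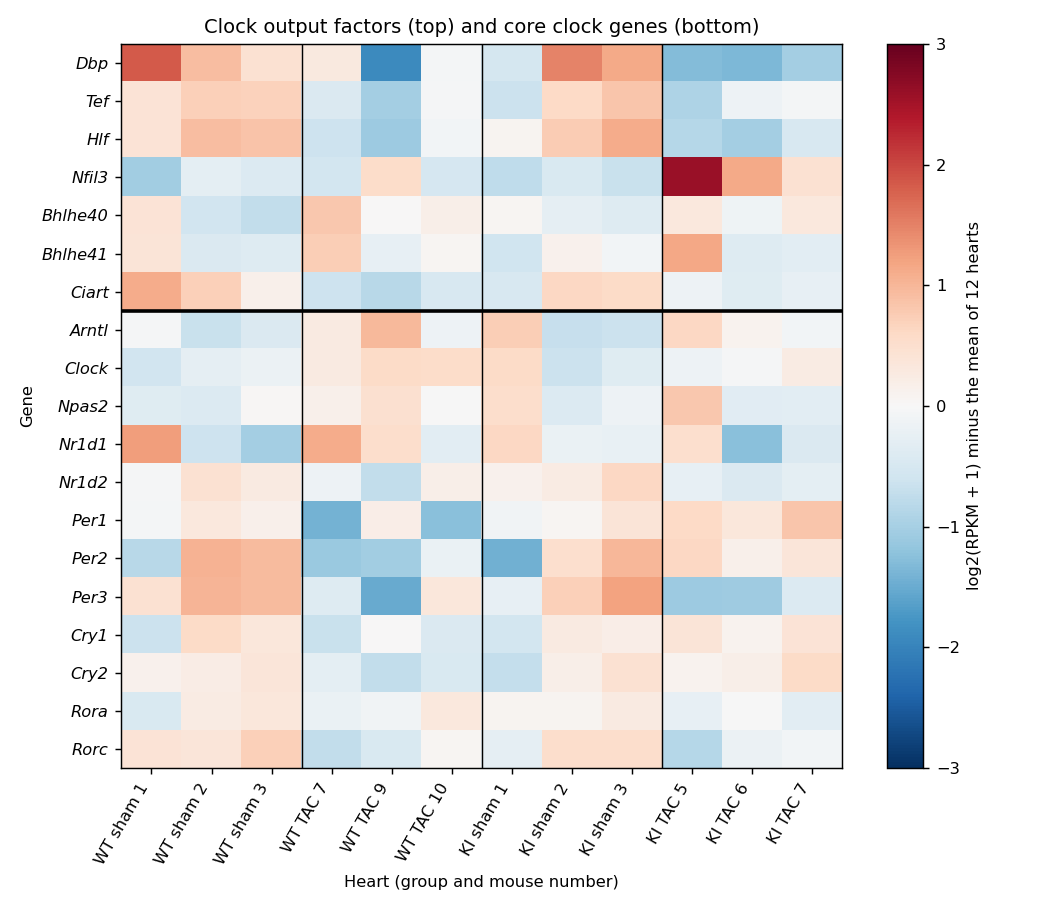
Clock output factors (upper 7 rows) and 12 core clock genes (lower rows) in 12 hearts (columns, by group and mouse number); colour is log2(RPKM + 1) minus the mean of the 12 hearts. WT TAC 9 is the lowest of all hearts for Dbp, Tef, Hlf and Ciart, KI sham 1 is the lowest KI sham heart for the same genes, and these hearts have the highest Arntl, at 2.56 and 2.04 RPKM.

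Over the 12 mice, Pearson's r of log2(RPKM + 1) was 0.874 between Tef and Hlf, 0.847 between Dbp and Hlf, 0.833 between Dbp and Ciart and 0.811 between Dbp and Tef. After each group's mean had been subtracted it was 0.842, 0.553, 0.818 and 0.661. Nfil3 went the other way, with r of -0.720 with Dbp, -0.658 with Hlf and -0.558 with Tef, or -0.418, -0.231 and -0.451 after the group means had been subtracted. Bhlhe40 and Bhlhe41 had r of 0.605, and 0.549 within groups. The mice share 4 groups and the genes of a mouse share a library, so these values describe the 12 hearts and carry no p.

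The genes most like each member over the 12 mice were the highest of 11239 others, a choice that by itself gives high values. For Hlf they were Gm48483 (r of 0.984, and 0.931 after the group means had been subtracted), Tmem63b (0.973 and 0.875) and the clock gene Per3 (0.970 and 0.972). For Dbp they were Syngr2 (0.967 and 0.945), Tap2 (0.964 and 0.937) and Dand5 (0.963 and 0.919), and for Tef Cd200 (0.951 and 0.937), Gm43401 (0.950 and 0.930) and Amy1 (0.943 and 0.978). Per3 was the only gene of the clock lists among these 9. For Nfil3 they were Klf6 (0.983 and 0.953), Ell2 (0.979 and 0.954) and Ifrd1 (0.978 and 0.934). Klf6 codes for a zinc-finger factor of the immediate response to stress and Ell2 for an elongation factor of RNA polymerase. For Ciart they were Me3 (0.927 and 0.818), Xrcc1 (0.927 and 0.887) and Trip10 (0.923 and 0.794), for Bhlhe40 Trp53 (0.958 and 0.960), Stx6 (0.942 and 0.915) and Tgfb1 (0.930 and 0.892), and for Bhlhe41 Lipt1 (0.898 and 0.918), Gtpbp6 (0.857 and 0.861) and Csrp1 (0.819 and 0.819).

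The core loop above the output factors and the genes around it were read from lists. Of all genes tested, 6.96% were called higher and 4.60% lower after TAC in WT hearts, 8.57% and 14.7% in KI hearts, and 2.92% and 8.13% in KI TAC against WT TAC, with median log2 fold changes of 0.04, -0.10 and -0.12 in the same order. In the interaction limma and limma-voom called 0 genes of any list, and between 0 and 4 genes of a list had an unadjusted p under 0.05 (14.8% of all genes), so a call in 1 genotype is not a difference between the genotypes. The largest numbers were 4 of 8 glucocorticoid-responsive genes (median log2 value 1.26) and 3 of 8 clock-controlled genes of the heart (0.58), lists given below. The median of all genes in the interaction was -0.13. Of 13 core clock genes, 12 were tested, and 0 were called in WT hearts after TAC by limma, where 5 had an unadjusted p under 0.05 and limma-voom called 1; the median log2 fold change was -0.46. In KI hearts 1 was called: Per3, a period gene, fell by 1.41 on the log2 scale (SE 0.42, adjusted p = 0.0269), and the median was 0.12. The log2 fold change of Per3 in WT hearts was -1.34 (SE 0.42, limma, adjusted p = 0.0547), and its interaction was -0.08 (SE 0.59, adjusted p = 0.960). Between the TAC groups 1 was called: Per1, a period gene that glucocorticoids also induce, was higher in KI hearts by 1.41 (SE 0.33, adjusted p = 0.0209), and the median was -0.11. Of 7 kinases and ubiquitin ligases that act on clock proteins, Csnk1d (0.76, adjusted p = 0.00568) and Fbxw11 (0.54, 0.0344) rose in KI hearts and 0 were called by limma or limma-voom in WT hearts or between the TAC groups, where 1 in each had an unadjusted p under 0.05.

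Targets of the output factors were also followed. Of 5 tested PAR bZIP targets known from liver and kidney, 1 fell in WT hearts, where 4.60% of all genes did, and 2 in KI hearts, where 14.7% did. The glutathione transferase Gstt1 went from 9.29 to 3.96 RPKM in WT hearts and from 9.64 to 3.70 in KI hearts (log2 fold change -1.08 in each, limma, adjusted p = 0.0308 and 0.0187). Ppara, the nuclear receptor of fatty acid use, went from 24.9 to 8.02 RPKM in KI hearts (-1.50, limma, adjusted p = 0.00230). Its log2 fold change in WT hearts was -0.91, which did not pass the test (limma, adjusted p = 0.0530), and its interaction was not called (-0.59, 0.488). The medians over the 5 targets were -0.39 in WT and -0.67 in KI hearts, and -0.06 between the TAC groups, where limma called 0, limma-voom called 1 and 2 had an unadjusted p under 0.05.

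Of 6 tested clock outputs that many tissues share, 2 fell in WT hearts after TAC: Tsc22d3, a glucocorticoid-induced leucine zipper gene (-1.08, limma, adjusted p = 0.0188), and Usp2, a deubiquitinase (-0.90, 0.0450). In KI hearts 1 was called: Tspan4, a tetraspanin, rose (1.00, adjusted p = 0.0219). Between the TAC groups Tsc22d3 was higher in KI hearts (0.93, adjusted p = 0.0395) and Dtx4 lower (-1.30, 0.0227). The medians were -0.82, -0.61 and 0.17 in the 3 comparisons.

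Of 8 clock-controlled genes of the heart, 3 fell in WT hearts: the potassium channel subunit Kcnip2 (-1.68, limma, adjusted p = 0.0161), the triglyceride synthesis enzyme Dgat2 (-1.65, 0.00367) and the transcription factor Klf15 (-1.40, 0.0217). In KI hearts Pdk4, the kinase that restrains glucose oxidation, rose (2.08, adjusted p = 0.0315), and the potassium channel Kcnh2 (-1.78, 0.000452) and Klf15 (-1.05, 0.0476) fell. Between the TAC groups 4 were higher in KI hearts, namely Pdk4 (2.62, adjusted p = 0.0237), the uncoupling protein Ucp3 (1.50, 0.0287), Dgat2 (1.45, 0.0119) and the potassium channel Kcna5 (1.02, 0.0418), and 1 was lower. The medians were -0.79, -0.24 and 0.88. In the lists above limma and limma-voom called 0 genes between the sham groups, where an unadjusted p under 0.05 was reached by 2 of these 8 genes and 0 of the other lists. These were Pdk4 and Ucp3, with log2 differences between KI sham and WT sham of 1.54 (SE 0.64) and 1.00 (SE 0.39), both at an adjusted p of 1.00 in limma. Their interactions were 1.08 (SE 0.91) and 0.50 (SE 0.55), at adjusted p of 0.579 and 0.677 in limma.

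Structural relatives of the members were counted from lists too. Of 5 tested C/EBP bZIP genes, Cebpd was called, with a rise in KI hearts (1.91, limma, adjusted p = 0.00114) and a higher level in KI TAC than in WT TAC (1.36, 0.0211). In WT hearts 0 were called by limma or limma-voom, and 0 had an unadjusted p under 0.05. Of 4 tested Hes and Hey bHLH genes, Hes6 fell in both genotypes (-0.75, adjusted p = 0.0424 in WT and -0.67, 0.0432 in KI hearts) and Hey1 in KI hearts (-0.76, 0.00942). In WT hearts limma-voom called 0 genes of this list.

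Bhlhe40, Per1 and Nfil3 are also known to answer signals other than the clock, so 2 further lists were read. Of 10 tested hypoxia-responsive genes, the glucose transporter gene Slc2a1 rose in WT hearts (0.91, limma, adjusted p = 0.0415) and Slc2a1 (0.92, 0.0240) and Adm (0.79, 0.0337) rose in KI hearts. Between the TAC groups Adm was higher (0.89, adjusted p = 0.0379) and Egln3 lower (-1.05, 0.0284) in KI hearts, and the medians of the list were -0.09 in KI hearts and -0.08 between the TAC groups. Of 8 glucocorticoid-responsive genes, 1 fell in WT hearts (Tsc22d3, median of the list -0.52), 3 rose in KI hearts (Fkbp5 by 2.30, Pdk4 by 2.08 and Sgk1 by 1.31, median 0.64), and 5 were higher in KI TAC than in WT TAC (median 1.35), against 4.60% of all genes lower, 8.57% higher and 2.92% higher in these comparisons. Per1, Tsc22d3 and Pdk4 each belong to this list and to a clock list above, so these counts overlap. Whether either kind of signal had a part in the levels of the members was not tested.

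RNA of whole hearts cannot tell fewer cells of a type from less RNA per cell. Markers of other cells were read beside the members for this reason. Over 5 leukocyte markers the summed level was 22.2 to 27.3 RPKM in WT sham, 34.2 to 57.0 in WT TAC, 22.9 to 27.9 in KI sham and 19.7 to 28.1 in KI TAC. Of the 4 tested in limma, 3 were called higher after TAC in WT hearts, 1 higher and 1 lower in KI hearts, and between the TAC groups 2 were lower in KI hearts. Over 3 neutrophil markers, of which 2 rose in WT and 3 in KI hearts and S100a8 and S100a9 were at 0 in some hearts, it was 0.508 to 1.27, 3.69 to 9.87, 0.395 to 0.505 and 4.18 to 20.3 in the same order. The sum was 20.3, 11.3 and 4.18 RPKM in KI TAC 5, 6 and 7, the order of their Nfil3 levels (79.2, 28.2 and 17.2 RPKM). In WT TAC 7, 9 and 10 it was 5.37, 9.87 and 3.69, and WT TAC 9 was the highest of these for Nfil3 too (18.5 RPKM). The order was not shared by WT TAC 7 and 10, with Nfil3 at 8.02 and 8.43 RPKM. KI TAC 7 was below WT TAC 7 in the neutrophil sum but above it in Nfil3. The 5 fibroblast markers summed to 103 to 162, 129 to 580, 124 to 205 and 87.6 to 163 RPKM, with WT TAC 10 the highest. The 4 smooth muscle markers summed to 35.5 to 44.8, 54.0 to 129, 26.6 to 54.7 and 41.2 to 81.9 RPKM, without overlap in WT hearts; 1 was called higher after TAC in WT hearts, and between the TAC groups 1 was lower in KI hearts. The 5 red blood cell markers summed to 145 to 171, 74.8 to 114, 134 to 244 and 97.7 to 257 RPKM, again without overlap in WT hearts, where limma and limma-voom called 0 and 2 (Hbb-bs and Hbb-bt) had an unadjusted p under 0.05 in each. The part of these cells in the differences of Nfil3 or the other members was not tested, and markers of atrial cardiomyocytes and skeletal muscle were not analysed here.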

How the data were processed

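Hearts of 12 mice were assigned to 4 groups of 3 from the labels for genotype and treatment. Reads of 75 bases were trimmed (Trimmomatic), aligned to GRCm38 (HISAT2) and counted per gene (HTSeq) by the authors (versions 0.39, 2.2.1 and 0.6.1 per the submitters' processing notes). The deposited values are RPKM, a unit read from the values: multiplied by exon length (GENCODE M21, found for 13541 of 13552 identifiers) each library summed to 997559 to 1002031. The filter behind the 13552 genes is not given in the sources used here. Depth was recovered from low values, of which 95.6% to 97.5% were whole multiples of 1 read within 0.05 reads.

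From the RPKM, log2(RPKM + 1) was computed; genes reaching 1 RPKM in 3 or more mice entered the tests. A model of 4 groups was fitted in limma 3.58.1 under R 4.3.3 (empirical Bayes with a mean trend), with Benjamini-Hochberg adjustment over 11240 genes and a threshold of 0.05; the deposited values are not counts, so the study's edgeR test was not run, and reads recovered from them were tested with limma-voom as an alternative. Fold changes on this scale understate the change of low genes. Permutation tests were exact and two-sided. The model was also run on simulated data that gave every gene the same relative spread between mice. Members here spread up to 5.04-fold within a group (Dbp in WT TAC), so no error rate is taken from that run. Alternatives were a pseudocount of 0.1, no filter, quantile normalization, median-ratio scaling, limma-voom on recovered reads, the 2 groups alone, an adjusted p of 0.10, a replicate block for sham mice and leaving out each mouse.

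The members and lists were chosen with earlier results of these data known. The text names the 7 members, per list and comparison at most 4 called genes with the largest fold change, and the 3 genes most like each member. p-values measure the spread between mice.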

Additional observations from a re-analysis of the deposited data

How the results depend on the processing

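The direction of Dbp, Tef, Hlf, Nfil3, Bhlhe40 and Ciart after TAC was kept in both genotypes under all alternatives, leaving out each mouse included, and that of Bhlhe41 in WT hearts; Bhlhe41 in KI hearts ranged from -0.16 to 0.61 when 1 mouse was left out. Members called in WT TAC against WT sham were 2, and 4 at an adjusted p of 0.10, where 18.4% of all genes were called against 11.6% at 0.05. Genes of the clock, kinase and target lists (the relatives, hypoxia and glucocorticoid lists not counted) called there were 6 of 38 (15.8%, against 11.6% of all genes), and 10 with median-ratio scaling (26.3% against 12.9%), 10 with only the 2 groups compared (26.3% against 10.6%) and 15 at an adjusted p of 0.10 (39.5% against 18.4%). In KI TAC against KI sham they were 9 of 38 (23.7% against 23.3%), and in KI TAC against WT TAC 8 of 38 (21.1% against 11.0%). In KI TAC against WT TAC, with only the 2 groups compared, 0 members and 1 list gene were called (2.63% of the list against 1.92% of all genes), where the fit has fewer mice for its spread. When 1 mouse was left out, members called ranged from 2 to 4 in WT hearts, 2 to 5 in KI hearts and 0 to 1 between the TAC groups. They stayed at 0 between the sham groups and in the interaction. List genes called ranged from 1 to 11, 4 to 11, 0 to 9, 0 to 0 and 0 to 2 in the same order of comparisons. The share of all genes called moved too, from 5.30% to 13.6%, 12.9% to 26.5%, 1.44% to 16.2%, 0.0178% to 0.0356% and 0% to 2.14%. Between the TAC groups 0 list genes were called without KI TAC 6 (1.65% of all genes) and 1 without WT TAC 7 (1.44%).

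Uncalled differences near 0 changed sign. In KI TAC against WT TAC, Bhlhe40 became 0.02 with median-ratio scaling, and Bhlhe41 became 0.05 with quantile normalization and 0.15 with median-ratio scaling; the interaction of Hlf became 0.07 and 0.04 under the same 2 settings. When 1 mouse was left out, values in KI TAC against WT TAC ranged from -0.14 to 0.40 (Tef), -0.43 to 0.07 (Hlf), -0.33 to 0.07 (Bhlhe40) and -0.54 to 0.24 (Bhlhe41), those in KI sham against WT sham from -0.77 to 0.23 (Dbp), -0.63 to 0.12 (Tef), -0.31 to 0.21 (Hlf), -0.28 to 0.09 (Nfil3), -0.11 to 0.46 (Bhlhe40) and -0.20 to 0.22 (Bhlhe41), and the interactions from -0.96 to 0.15 (Dbp), -0.40 to 0.15 (Hlf) and -0.49 to 0.29 (Bhlhe41).

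Sham mice of both genotypes carry the numbers 1 to 3. Their deviations from the group means correlated across genes at -0.225, -0.302 and 0.440 for the same numbers, and at -0.35 to 0.434 for different numbers. The deviations of a group sum to 0, so these values depend on one another. Whether a number marks a shared litter, day or batch cannot be told from them. The fit with the replicate block, in the 6 sham mice, called 0 members and 0 of all 11240 genes. The main fit called 0 members and 0.0178% of all genes between the sham groups.

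No member had fewer than 93 reads in a mouse. With 3 mice a group, 1 heart decides several calls.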
